A study of Mus musculus with 6 samples.

Results

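Among CD4 T cells that carried surface Cxcr5, cells with a signal from a Bcl6 reporter were compared with cells without it. The comparison used 4 of the 6 arrays of the series, 2 of Cxcr5+Bcl6+ cells and 2 of Cxcr5+Bcl6- cells, chosen by their titles, and all 23410 probe sets with a gene symbol, which gave 19938 genes with 1 probe set each. All samples came from male Bcl6_RFP reporter mice of 8 to 10 weeks immunised with KLH/CFA, a foreign carrier protein (keyhole limpet haemocyanin) in an oil emulsion with killed mycobacteria (complete Freund's adjuvant). CD4+ CD44+ T cells, which have met antigen, were sorted from draining lymph nodes by surface Cxcr5 and by the red fluorescent signal that reports Bcl6. The remaining 2 arrays, of Cxcr5-Bcl6- cells from the same kind of mice, entered the fit for the estimate of the spread, and their levels are given beside some genes with no test. The design text calls the arrays of a group biological replicates. How the reporter was made, how many mice gave each array and whether cells were restimulated before RNA was taken is not stated in the labels. P-values therefore measure only the spread between these samples.

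Follicular helper T cells enter B cell follicles along the chemokine Cxcl13, which their receptor Cxcr5 detects, and help B cells to form germinal centres and to make high-affinity antibody. Bcl6 is a transcriptional repressor that these cells need, and it opposes Prdm1, the repressor of the effector path. Cxcr5 can also be found on recently activated T cells and on some regulatory T cells, so a Cxcr5+ gate may hold cells with different levels of Bcl6. The question of the comparison was what separates reporter-positive from reporter-negative cells inside that gate.

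Both sort genes bore out the labels. Bcl6 (probe set 10438738) had log2 levels of 11.45 and 11.55 with the reporter, 10.55 and 10.56 among Cxcr5+ cells without it and 10.31 and 10.31 in Cxcr5-Bcl6- cells. The difference between the Cxcr5+ groups was 0.94 on the log2 scale, or 1.92-fold (SE 0.09, adjusted p = 1.4e-05 by limma). Bcl6 RNA was thus far from missing in reporter-negative cells. For Cxcr5 (probe set 10592888) the levels were 11.01 and 10.98 with the reporter, 9.98 and 9.91 without it and 7.61 and 7.34 in Cxcr5-Bcl6- cells. Although both groups had been sorted as Cxcr5+, Cxcr5 was 2.07-fold higher in reporter-positive cells (log2 change 1.05, SE 0.10, adjusted p = 2.2e-05). Genes that define T cells stood high on every array. The mean log2 level over 11 measured T cell core genes was 12.28 and 12.38 with the reporter and 12.30 and 12.31 without it, and Cd3e stood at 13.50 and 13.59 against 13.41 and 13.40. Of these genes 1 rose, Cd4 (12.77 and 12.68 against 12.44 and 12.45), and 0 fell (median log2 change -0.03). The rise of Cd4 was lost without Cxcr5+Bcl6+ replicate 1 or either Cxcr5+Bcl6- array. After centring each array on its median the list had more falls than rises.

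In all, 6185 of 23410 probe sets passed an adjusted p of 0.05 (limma, two-sided, Benjamini-Hochberg), 26.4% of those tested, with 3144 higher and 3041 lower in Cxcr5+Bcl6+ cells. Counted by gene, 2362 of 19938 rose (11.8%) and 2624 fell (13.2%), and the median log2 change was 0.06. The large differences were mostly falls: 350 genes fell and 44 rose by at least 2-fold, 51 fell and 3 rose by at least 4-fold, and 17 fell and 0 rose by at least 8-fold. The counts depended on the number of arrays. They dropped to 3617 probe sets without Cxcr5+Bcl6- replicate 1 and to 3820 without Cxcr5+Bcl6- replicate 2. Rises numbered 2095 without Cxcr5+Bcl6+ replicate 2, 1700 without Cxcr5+Bcl6- replicate 1 and 1679 without Cxcr5+Bcl6- replicate 2, and falls numbered 1917 without Cxcr5+Bcl6- replicate 1. The split also moved with scaling, to 2074 rises and 3859 falls after each array was centred on its median.

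Low levels behaved differently from high ones. The 1179 olfactory and vomeronasal receptor genes, which serve smell and should be silent in T cells, had a median log2 change of 0.30, and 559 of them passed as rises and 0 as falls. Their median level was 5.92 and 6.02 on the Cxcr5+Bcl6+ arrays, 5.66 and 5.63 on the Cxcr5+Bcl6- arrays and 5.69 and 5.77 on the Cxcr5-Bcl6- arrays. After renewed quantile normalisation the median was 0.20, with 301 rises. The 95th percentile of these genes' mean levels, 7.48, serves here as a floor, since no detection calls were used. Of 12264 genes above the floor in at least 1 of the compared groups, 1423 rose (11.6%) and 2532 fell (20.6%), with a median log2 change of -0.00. Of the 7674 genes under the floor in both, 939 rose and 92 fell. A rise called under the floor therefore has the same direction as the receptor genes, and small rises near it should be read beside their median. Where 1 group stood under the floor, the size of the fold is uncertain.

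**Figure D1:**
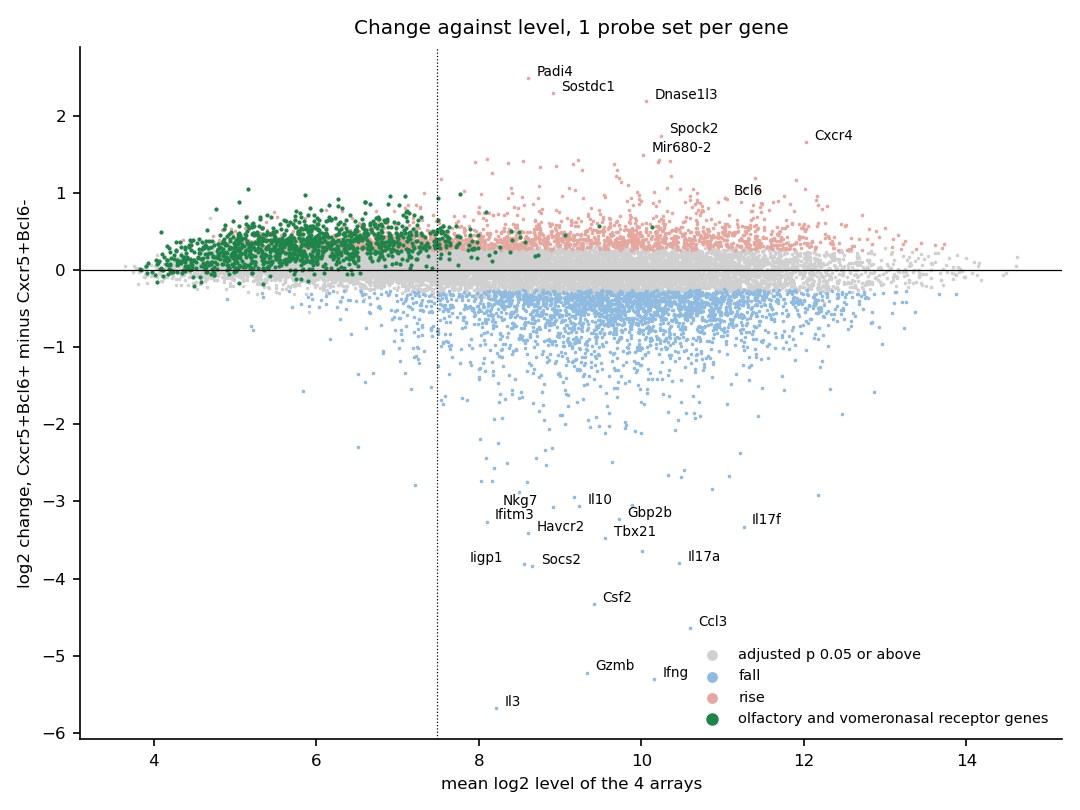
Log2 change (Cxcr5+Bcl6+ minus Cxcr5+Bcl6-) of each gene against its mean log2 level over the 4 compared arrays, coloured by call at adjusted p 0.05, with the floor of 7.48 as a dotted line. Olfactory and vomeronasal receptor genes lie mostly above 0 with a median of 0.30, and the changes beyond 4-fold are 51 falls and 3 rises.

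The largest rise was that of Padi4, which encodes an enzyme that turns protein arginine into citrulline. Its log2 level was 9.95 and 9.76 with the reporter, 7.45 and 7.29 without it and 6.60 and 6.44 in Cxcr5-Bcl6- cells, a 5.59-fold difference between the Cxcr5+ groups (log2 change 2.48, SE 0.10, adjusted p = 3.5e-08). Reporter-negative cells stood just under the floor, so a level near background in them cannot be told from a low level of Padi4. Sostdc1, whose secreted product restrains BMP and Wnt signals, stood at 9.99 and 10.13 against 7.78 and 7.75 (4.91-fold, log2 change 2.29, SE 0.10, adjusted p = 3.6e-08). Dnase1l3, which encodes a secreted DNase, stood at 11.17 and 11.14 against 9.05 and 8.88 (4.55-fold, log2 change 2.19, SE 0.10, adjusted p = 4.4e-08). The ranking took only genes whose compared groups did not overlap. In these 3 genes the Cxcr5-Bcl6- arrays lay lower still, at 7.01 and 7.19 for Sostdc1 and 7.46 and 7.34 for Dnase1l3. Spock2, a gene of an extracellular proteoglycan, reached 11.08 and 11.14 against 9.42 and 9.31 (log2 change 1.74, SE 0.11, adjusted p = 5.6e-07). Cxcr4, the receptor for Cxcl12 that draws germinal centre cells to the dark zone, reached 12.79 and 12.92 against 11.17 and 11.22 and 10.60 and 10.55 in Cxcr5-Bcl6- cells (3.16-fold, log2 change 1.66, SE 0.09, adjusted p = 2.5e-07). Its levels were high on all 6 arrays.

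The next rises included genes of the cytoskeleton, of signalling and of transcription. Pde2a, a phosphodiesterase that degrades cyclic nucleotides, stood at 11.03 and 11.09 against 9.66 and 9.63 (log2 change 1.41, SE 0.09, adjusted p = 5.1e-07). Hpgds, the haematopoietic prostaglandin D synthase, stood at 9.13 and 9.38 against 7.95 and 7.73 (log2 change 1.41, SE 0.11, adjusted p = 3.4e-06). Both were higher on each Cxcr5+Bcl6+ array than on any of the other 4 arrays. Nfia, a transcription factor gene, changed by 1.42, and Ascl2, a basic helix-loop-helix factor known to favour Cxcr5 expression, by 1.40, from 7.33 and 7.19 to 8.57 and 8.74. The tubulin genes Tubb2b (1.43) and Tubb2a (1.40) are near-identical copies, so their probe sets may report the same transcripts. Sccpdh rose by 1.39, and Cd79b, a signalling chain of the B cell receptor, rose by 1.38, from 9.0 and 8.95 to 10.37 and 10.33. Mir680-2 (1.5) and Srsy (1.44) belong to loci with related copies, and a probe set for such a locus does not show which copy was measured. In these 2 the Cxcr5+Bcl6- arrays were below the Cxcr5-Bcl6- arrays (9.17 and 9.37 against 9.65 and 9.58 for Mir680-2, and 7.48 and 7.28 against 7.84 and 8.00 for Srsy). The lower group was under the floor for 3 of the 15 largest rises, Padi4, Srsy and Ascl2.

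Falls were larger than rises. Il3, the cytokine of mast cell and basophil growth, stood at 5.31 and 5.44 in Cxcr5+Bcl6+ cells against 11.11 and 10.99 in Cxcr5+Bcl6- cells and 10.05 and 9.75 in Cxcr5-Bcl6- cells (51.0-fold, log2 change -5.67, SE 0.11, adjusted p = 9.5e-11). Ifng, the interferon gamma gene, stood at 7.50 and 7.50 against 12.80 and 12.82, with 11.60 and 11.67 in Cxcr5-Bcl6- cells (39.6-fold, log2 change -5.31, SE 0.09, adjusted p = 2.2e-11). Gzmb, which encodes the cytotoxic protease granzyme B, stood at 6.73 and 6.71 against 11.89 and 11.98 (37.2-fold, log2 change -5.22, SE 0.09, adjusted p = 2.2e-11). Il3 and Gzmb were thus near background in reporter-positive cells, and Ifng stood at the floor, while all 3 were among the clear signals of the reporter-negative cells. The chemokine gene Ccl3 fell from 12.95 and 12.89 to 8.07 and 8.48 (25-fold, log2 change -4.65, SE 0.12, adjusted p = 8.7e-10). Csf2, the gene of the cytokine GM-CSF, fell from 11.63 and 11.54 to 7.18 and 7.32 (20.2-fold, log2 change -4.33, SE 0.11, adjusted p = 6.2e-10). The gene of Socs2, a suppressor of cytokine signalling that STAT5 is known to induce, fell from 10.68 and 10.48 to 6.60 and 6.88 (14.3-fold, log2 change -3.84, SE 0.12, adjusted p = 2.7e-09).

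Of the other large falls, Il17a went from 12.29 and 12.44 to 8.54 and 8.59 and Il17f from 13.02 and 12.82 to 9.47 and 9.72, both cytokines of T helper 17 cells. Tbx21, the gene of T-bet, the regulator of T helper 1 cells, went from 11.29 and 11.29 to 7.85 and 7.79, close to the floor (11.1-fold, log2 change -3.47, SE 0.09, adjusted p = 6.2e-10). Havcr2, the gene of the inhibitory receptor Tim-3, went from 10.35 and 10.28 to 6.90 and 6.90 (10.6-fold). Il10, the gene of an anti-inflammatory cytokine, went from 10.82 and 10.72 to 7.4 and 8.02, and its Cxcr5+Bcl6+ arrays differed more from each other than those of the genes above (SE 0.16). The interferon-induced genes Iigp1 (-3.81), Ifitm3 (-3.26) and Gbp2b (-3.23), and Nkg7 (-3.08), a gene of cytotoxic granules, complete the 15. Gbp2b belongs to a tandem family of near-identical genes, so its probe set may share signal with its neighbours. Gm12250 (-3.64), which has no curated name, fell within the same range and was left out of the ranking. In 8 of the 15 largest falls the reporter-positive cells stood under the floor, so the size and the rank of those falls are uncertain. All 30 of these changes kept their direction and passed the threshold under every alternative that kept them in the test. They were picked as the largest changes past that threshold on the same arrays, so passing again is no separate support. The filter at the median level left out Padi4, Srsy, Hpgds, Ascl2 and Sccpdh.

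**Figure D2:**
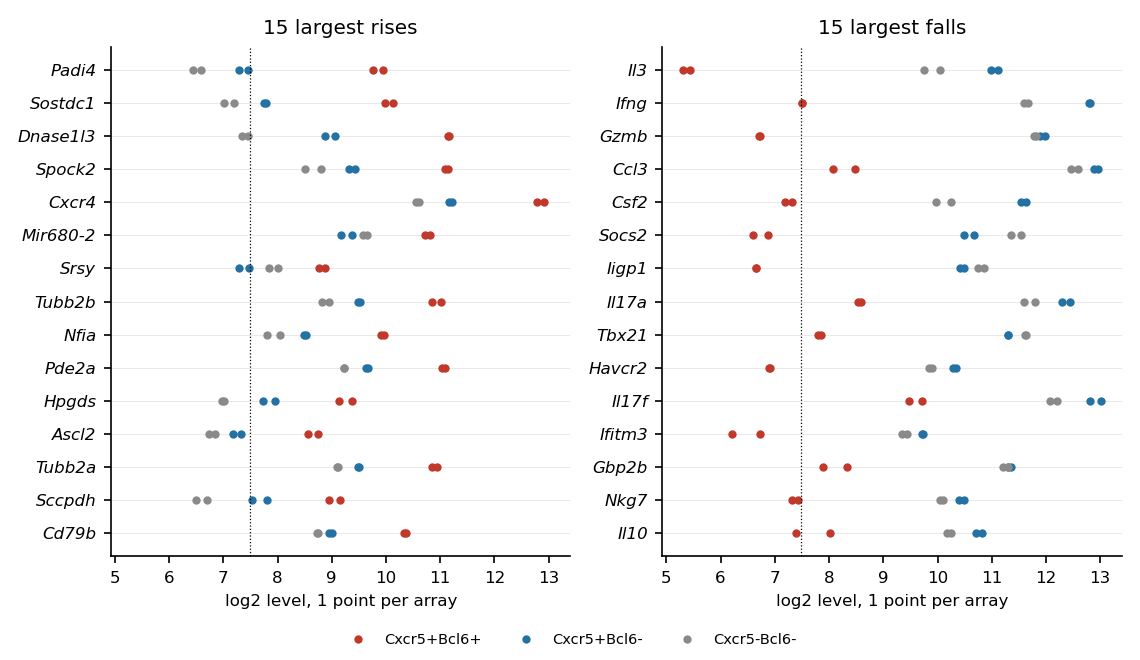
Log2 levels of the 15 largest rises (left) and 15 largest falls (right), 1 point per array, in red for Cxcr5+Bcl6+, blue for Cxcr5+Bcl6- and grey for Cxcr5-Bcl6- cells, with the floor of 7.48 dotted. The red points lie apart from the blue ones in every row because only genes without overlap were ranked. For Il3 the red points lie at 5.31 and 5.44, below the floor.

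Several factors of the follicular helper program were higher in reporter-positive cells, and several others were lower or close to equal. Of 18 measured factors 6 rose and 6 fell (median log2 change 0.06, against 0.06 over all genes). The shares over all genes were 11.8% rises and 13.2% falls, or 11.6% and 20.6% above the floor. The list holds the sort gene Bcl6. Prdm1, which encodes Blimp-1, the repressor opposed to Bcl6, stood at 7.80 and 7.51 against 10.03 and 9.94 and at 9.77 and 9.78 in Cxcr5-Bcl6- cells (5.03-fold lower, log2 change -2.33, SE 0.11, adjusted p = 6.1e-08). The higher of its reporter-positive arrays was only slightly above the floor. Tox2 and Tox, related nuclear factors that support this lineage, stood at 10.87 and 11.07 against 9.68 and 9.83 (log2 change 1.21, SE 0.10, adjusted p = 5.3e-06) and at 12.23 and 12.28 against 11.52 and 11.46 (log2 change 0.77, SE 0.09, adjusted p = 8.6e-05). Id3, an inhibitor of E proteins, stood at 9.65 and 9.84 against 8.81 and 8.81 (log2 change 0.93, SE 0.09, adjusted p = 2.7e-05), and its relative Id2 moved the other way, from 12.29 and 12.16 to 11.49 and 11.49 (log2 change -0.73, SE 0.09, adjusted p = 0.00014). Irf4, a factor induced by antigen receptor signals, fell from 12.54 and 12.55 to 11.49 and 11.53 (log2 change -1.03, SE 0.09, adjusted p = 5.3e-06). Bach2, a repressor of effector genes, fell by 0.59 (adjusted p = 0.0021), and its levels were highest in Cxcr5-Bcl6- cells (11.52 and 11.65).

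Smaller differences in this list were those of Lef1 (0.41), Batf (-0.47) and Stat3 (-0.39), which passed with all arrays but not without Cxcr5+Bcl6- replicate 1. Maf, which drives Il21 and Il4 in follicular helper cells, was at 11.58 and 11.60 against 11.62 and 11.58, with a 95% interval of -0.21 to 0.19 for its log2 difference. It was lower in Cxcr5-Bcl6- cells, at 10.74 and 10.87. The intervals for Klf2 (-0.13 to 0.24), a factor of lymph node exit, and for Foxo1 (-0.13 to 0.27), a brake on the program, also held 0. For these genes differences beyond those bounds lie outside the interval, and smaller ones could not be resolved with 2 arrays a group.

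Receptors and adaptors of follicular helper cells also moved in both directions. Of 26 measured, 10 rose and 9 fell (median 0.04), and the balance turned to more falls than rises after centring on the median, over all rows of the table and without Cxcr5+Bcl6+ replicate 1. The list holds the sort gene Cxcr5 and the marker Cxcr4, given with the comparison, both among the rises. Sh2d1a, which encodes the adaptor SAP that T cells need for lasting contact with B cells, stood at 12.23 and 12.24, 11.31 and 11.26 and 10.02 and 9.76 in Cxcr5+Bcl6+, Cxcr5+Bcl6- and Cxcr5-Bcl6- cells (log2 change 0.95, SE 0.10, adjusted p = 3.9e-05). Ptpn13, a phosphatase gene, stood at 10.22 and 10.42 against 9.21 and 9.16 (log2 change 1.14, SE 0.10, adjusted p = 6.5e-06). Both rose. Pdcd1, which encodes the inhibitory receptor PD-1, was 12.46 and 12.51 against 12 and 12.05, a small rise of 0.46 (adjusted p = 0.0022). Il6ra, the receptor chain for interleukin 6, rose by 0.61 (adjusted p = 0.00078). S1pr2, a receptor that holds cells in the germinal centre, stood at 10.24 and 9.86 against 9.51 and 9.55, and its rise of 0.52 was lost without Cxcr5+Bcl6+ replicate 1.

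Slamf1, a receptor of the SLAM family, fell from 12.32 and 12.31 to 11.39 and 11.45 (log2 change -0.89, SE 0.09, adjusted p = 2.3e-05). Cd40lg, the ligand by which T cells activate B cells through CD40, fell from 11.89 and 11.93 to 11.22 and 11.45 (log2 change -0.57, SE 0.10, adjusted p = 0.0014), and Cd200 (-0.50) and the interleukin 21 receptor gene Il21r (-0.58) fell. Izumo1r, which encodes folate receptor 4, fell by 0.56. The costimulator Icos, needed for follicular helper cells to form, was high in both groups (13.62 and 13.62 against 13.78 and 13.74, 95% interval -0.32 to 0.05). Slamf6 (13.16 and 13.18 against 13 and 12.93), Cd84 (11.50 and 11.58 against 11.39 and 11.42) and Btla (11.84 and 11.86 against 11.93 and 11.97) also did not pass. Slamf6 was lower in Cxcr5-Bcl6- cells (12.03 and 11.97). Of 6 cytokines that help B cells, 0 rose and 2 fell (median -0.11). Il21, the main helper cytokine of germinal centres, was lower with the reporter, at 10.12 and 10.16 against 10.94 and 10.79, with 9.80 and 9.40 in Cxcr5-Bcl6- cells (log2 change -0.72, SE 0.12, adjusted p = 0.0012). Il4 fell from 9.95 and 9.83 to 9.07 and 9.11 (log2 change -0.80, SE 0.10, adjusted p = 0.00011). Cxcl13 and Il6 were under the floor in all 3 groups.

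**Figure D3:**
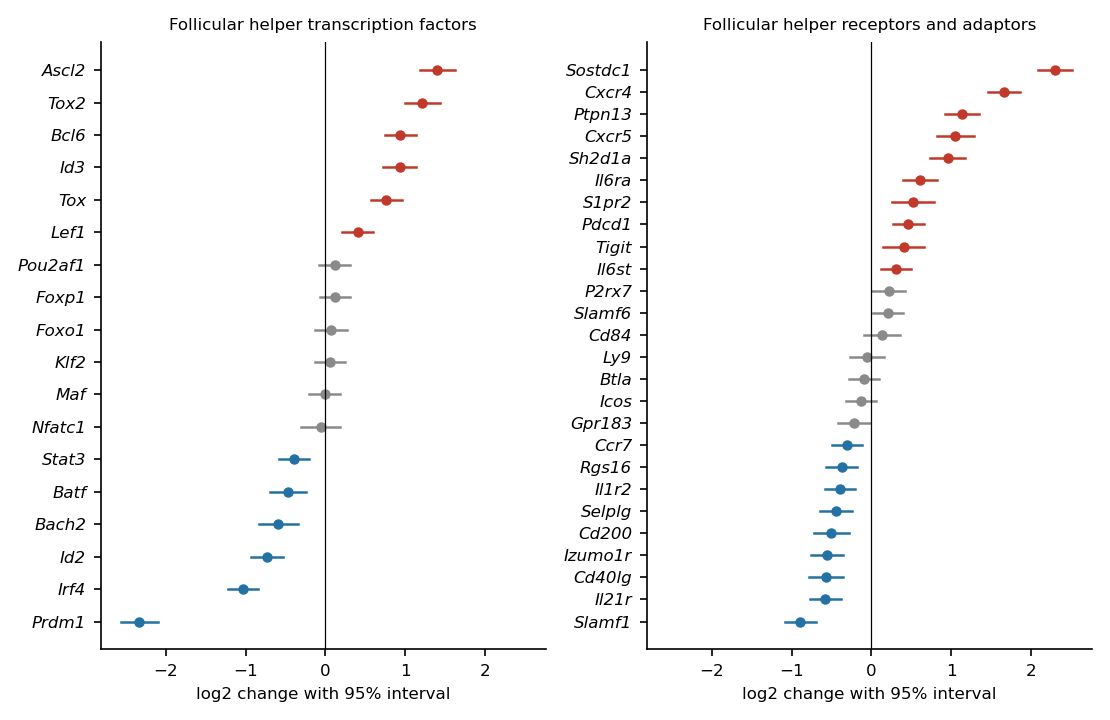
Log2 change (Cxcr5+Bcl6+ minus Cxcr5+Bcl6-) with its 95% interval for 18 transcription factors and 26 receptors and adaptors of follicular helper cells, red for rises, blue for falls and grey for genes that did not pass. The changes run from -2.33 for Prdm1 to 2.29 for Sostdc1, with 6 rises and 6 falls among the factors.

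Genes of the other helper lineages were lower in reporter-positive cells. Among T helper 1 genes 15 of 18 fell and 1 rose (median -0.98). Besides Ifng and Tbx21, the interleukin 12 receptor chains Il12rb2 (7.2 and 7.0 against 9.56 and 9.65, 5.69-fold, log2 change -2.51, SE 0.10, adjusted p = 1.8e-08) and Il12rb1 (8.86 and 9.01 against 11.04 and 11.06, 4.32-fold, log2 change -2.11, SE 0.10, adjusted p = 5.8e-08) fell. Il12rb2 was under the floor in reporter-positive cells. Lta (-1.95), the lymphotoxin alpha gene, Runx3 (-1.01), a partner of T-bet, and Cxcr3 (-0.69), a chemokine receptor of T helper 1 cells, fell too. Stat4, which carries the interleukin 12 signal, was the rise, from 12.70 and 12.71 to 13.20 and 13.06 (log2 change 0.43, SE 0.09, adjusted p = 0.0047). Among T helper 2 genes 9 of 12 fell and 0 rose (median -0.98). They included the chemokine receptor gene Ccr8 (9.29 and 9.61 against 12.25 and 12.33, 7.15-fold, log2 change -2.84, SE 0.11, adjusted p = 1.9e-08), the cytokine Il13 (-1.88) and the lineage regulator Gata3 (10.65 and 10.73 against 11.90 and 11.99, log2 change -1.26, SE 0.09, adjusted p = 1.6e-06). Il5 fell by 0.79 to a level under the floor.

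Of 9 measured T helper 17 genes 7 fell and 0 rose (median -1.10). The interleukin 23 receptor gene Il23r stood at 8.47 and 8.64 against 10.07 and 10.02 (log2 change -1.49, SE 0.09, adjusted p = 6.1e-07), Ccr6 at 8.84 and 9.03 against 10.09 and 9.98 (log2 change -1.10, SE 0.10, adjusted p = 1.4e-05) and Ahr, the aryl hydrocarbon receptor, at 8.59 and 9.0 against 10.12 and 10.10 (log2 change -1.31, SE 0.12, adjusted p = 1.7e-05). Rora, a nuclear receptor of this lineage, was at 11 and 10.95 against 11.05 and 10.99 and did not pass (95% interval -0.24 to 0.14). For Il23r and Ccr6 the Cxcr5+Bcl6- cells stood above the Cxcr5-Bcl6- cells (9.0 and 8.91 and 9.34 and 9.17), as they did for Il17a (11.59 and 11.80) and Il17f (12.20 and 12.08). Falls made up 13.2% of all genes and 20.6% of genes above the floor, where most list members stood, and their share was higher than either in all 3 lists, although genes of a list were chosen with earlier results of these data known. Of the 46 lists described here, 14 had 0 rises by limma after adjustment, and 12 of these also had 0 at an unadjusted p under 0.05, the chemokine and the erythroid list having 1 each. Only 4 lists had 0 falls, and those held 4 falls in all at the unadjusted p.

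**Figure D4:**
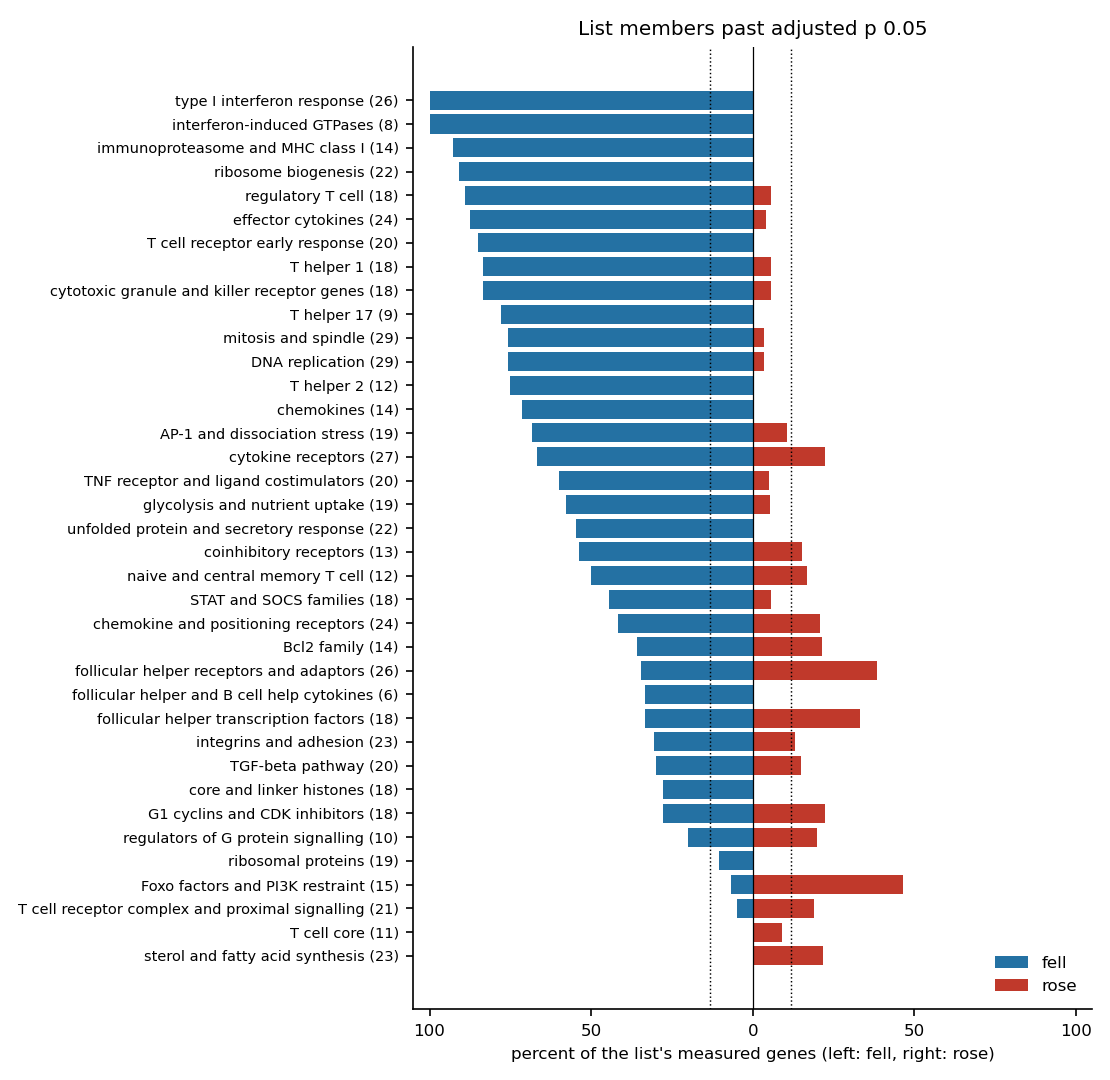
Share of each list's measured genes (number in brackets) that fell (left, blue) or rose (right, red) at adjusted p 0.05, with the shares over all genes, 13.2% falls and 11.8% rises, dotted. Among genes above the floor the shares were 20.6% and 11.6%. The type I interferon list has 26 falls of 26, and the Foxo list has 7 rises of 15.

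Cytokines were lower across lineages. Of 24 effector cytokine genes 21 fell and 1 rose (median -1.28). Il2, the T cell growth factor, stood at 9.18 and 9.27 against 11.93 and 11.71 (6.04-fold, log2 change -2.59, SE 0.10, adjusted p = 2e-08), and the tumour necrosis factor gene Tnf at 11.51 and 11.62 against 12.86 and 12.78 (log2 change -1.26, SE 0.09, adjusted p = 1.9e-06). Both groups of arrays were well above the floor for these genes. Lif (-2.04), Tnfsf10 (-1.94), which encodes the death ligand TRAIL, Tnfsf14 (-1.30) and Csf1 (-1.06) fell as well. Tgfb1 fell by 0.57, a call lost without Cxcr5+Bcl6+ replicate 1. The rise, of Tgfb3 (0.39), was lost without Cxcr5+Bcl6+ replicate 2 or either Cxcr5+Bcl6- array. Ltb, the lymphotoxin beta gene, was at 11.56 and 11.80 against 11.67 and 11.86 and did not pass. Of 14 chemokines 10 fell and 0 rose (median -1.03), led by Ccl3, by Ccl1 (8.29 and 8.43 against 11.41 and 11.41, 8.28-fold, log2 change -3.05, SE 0.09, adjusted p = 2.4e-09) and by Xcl1 (8.43 and 8.74 against 10.53 and 10.69, 4.06-fold). Cxcl10 (-1.73), an interferon-induced chemokine, Ccl20 (-1.73), Ccl5 (-1.09) and Ccl4 (-0.97) fell as well.

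Cytotoxic genes followed. Of 18 granule and killer receptor genes 15 fell and 1 rose (median -0.91), though only 13 stood above the floor in a compared group. Crtam, an adhesion receptor of cytotoxic CD4 cells, stood at 8.05 and 8.09 against 10.08 and 10.04 (log2 change -1.99, SE 0.09, adjusted p = 6.1e-08), Slamf7 at 9.21 and 9.37 against 10.86 and 10.82 and Cd160, a killer cell receptor, at 8.12 and 8.42 against 9.92 and 9.82. The protease inhibitors of the granule path Serpinb9 (-1.76) and Serpinb6b (-1.41) and the cathepsin inhibitor Cst7 (-0.97) fell. Gzma fell by 0.85, from 7.82 and 7.62 to 6.90 and 6.85, near the floor on each array. Perforin (Prf1) had low levels in both groups, 8.22 and 7.87 against 8.46 and 8.53, and its fall of 0.45 was lost without Cxcr5+Bcl6+ replicate 2 or Cxcr5+Bcl6- replicate 2. The rise, of Klrb1c, was lost without Cxcr5+Bcl6+ replicate 1 or Cxcr5+Bcl6- replicate 1 and was at levels under the floor (7.42 and 7.21 against 6.85 and 6.94), where the receptor genes also rose.

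Regulatory T cell genes were lower. Of 18 measured 16 fell and 1 rose (median -1.28). Foxp3, the lineage regulator, stood at 9.72 and 9.76 with the reporter, 12.34 and 12.49 without it and 12.50 and 12.77 in Cxcr5-Bcl6- cells (6.37-fold, log2 change -2.67, SE 0.11, adjusted p = 2.2e-08). Il2ra, the high-affinity chain of the interleukin 2 receptor, stood at 10.63 and 10.81 against 13.64 and 13.63 (7.56-fold, log2 change -2.92, SE 0.09, adjusted p = 3.7e-09). The integrin chain Itgae (7.24 and 7.19 against 10.02 and 9.91, 6.72-fold) and the ectonucleotidase Entpd1 (6.89 and 6.93 against 9.39 and 9.54, 5.90-fold) fell to levels under the floor. Reporter-positive cells kept a Foxp3 level above the floor. Gpr83 (-1.90), Lrrc32 (-1.85), which anchors latent TGF-beta, Tnfrsf9 (-1.59), Tnfrsf18 (-0.88) and Ikzf4 (-0.97) fell too. Ctla4 fell by 0.54, from 13.16 and 13.05 to 12.48 and 12.65. Nt5e, which encodes CD73, the enzyme that makes adenosine, rose from 11.04 and 11.01 to 11.64 and 11.71 (log2 change 0.65, SE 0.09, adjusted p = 0.00023). Nrp1 did not pass (9.44 and 9.47 against 9.59 and 9.43), and the fall of Ikzf2 (-0.26) was lost without each of the 4 compared arrays in turn. In sorted pools, fewer cells of a type and less RNA of its genes per cell cannot be told apart, here and for every lineage list.

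Naive and central memory genes were mixed. Of 12 measured 6 fell and 2 rose (median -0.27), and without Cxcr5+Bcl6+ replicate 1, Cxcr5+Bcl6+ replicate 2, Cxcr5+Bcl6- replicate 1 or Cxcr5+Bcl6- replicate 2 the rises numbered 2, 2, 1 and 2 and the falls 4, 4, 2 and 2. That order of arrays is kept for every such set of 4 counts. The shares over all genes were 11.8% rises and 13.2% falls, or 11.6% and 20.6% above the floor. Il7r, the interleukin 7 receptor of long-lived T cells, stood at 9.55 and 9.75 against 11.13 and 11.06 (log2 change -1.44, SE 0.11, adjusted p = 2e-06), and Dapl1 fell by 1.36. S1pr1, the receptor by which T cells leave lymph nodes, was higher with the reporter, 12.06 and 12.16 against 11.46 and 11.46 (log2 change 0.65, SE 0.09, adjusted p = 0.00025). Ccr7, which keeps T cells in the T cell zone, fell by 0.31, a call lost without Cxcr5+Bcl6+ replicate 2 or either Cxcr5+Bcl6- array.

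Receptors for cytokines were mostly lower, as were signalling brakes that STAT proteins induce. Of 27 cytokine receptor genes 18 fell and 6 rose (median -0.44), with 5, 2, 3 and 2 rises when the arrays were left out in turn. Besides Il2ra and the interleukin 12 receptor chains, Il4ra fell from 12.02 and 12.06 to 10.53 and 10.71 (log2 change -1.42, SE 0.09, adjusted p = 9.7e-07), and Il15ra (-1.28) and Il18rap (-1.19) fell too. Il2rb, which pairs with Il2ra, fell by 0.71. Tgfbr2, a TGF-beta receptor chain, rose by 0.45, and Tgfbr1 fell by 0.50. Il27ra (11.69 and 11.61 against 11.64 and 11.69) and Ifngr1 (11.88 and 11.82 against 11.78 and 11.75) did not pass. In the STAT and SOCS families 8 of 18 fell and 1 rose (median -0.12). Cish, a brake on interleukin 2 signalling, stood at 9.19 and 9.09, 11.70 and 11.95 and 12.28 and 12.39 in Cxcr5+Bcl6+, Cxcr5+Bcl6- and Cxcr5-Bcl6- cells (6.45-fold, log2 change -2.69, SE 0.11, adjusted p = 1.9e-08). Socs1 stood at 9.41 and 9.51 against 11.03 and 11.11 (3.05-fold, log2 change -1.61, SE 0.09, adjusted p = 3.2e-07), and Socs3 fell by 0.60, though a second probe set of Socs3 did not pass. Stat2 fell by 0.73. Stat5a fell by 0.41 and lost the call without Cxcr5+Bcl6- replicate 2, while Stat5b (12.13 and 12.14 against 12 and 12.01) did not pass.

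Bcl6 and STAT5 bind related sequences, whose core was searched for as TTCCNNGAA on both strands, from 250 bases before to 50 after the gene start (RefSeq, GRCm38.p6). It was found in 4.81% of 32851 promoters, and in 5.42% of the 15614 measured genes that have a promoter in that table. Among genes above the floor it was in 136 of 2034 falls (6.69%) and in 55 of 1144 rises (4.81%), and within these in 27 of 271 that fell by at least 2-fold (9.96%) and in 2 of 28 that rose by at least 2-fold (7.14%). Of the 15 largest falls 12 had a promoter and 1 held it, Nkg7, and of the 15 largest rises 10 had a promoter and 0 held it. Bcl6 itself held 2 matches in 1 of its 2 listed promoters, and Cish 2 that lie close together just after its start. In the STAT and SOCS families 14 genes had a promoter and 1 held the core, Cish (7.14%, against 5.42% of measured genes). The other lists searched held it more often, with small counts. It was in 3 of 16 T helper 1 genes (18.8%), 2 of 12 regulatory T cell genes (16.7%) and 3 of 20 type I interferon genes (15%). It was also in 2 of 20 effector cytokine genes (10%) and 2 of 4 interferon-induced GTPase genes. Bcl6, Nkg7 and Cish are shown because they hold it. They are a sort gene, a large fall and a target of STAT5 that fell. The lines give the 250 bases before the start of Bcl6 (chr16:23981284-23981533, minus strand) and Nkg7 (chr7:43436888-43437137, plus strand), and 30 bases of Cish (chr9:107296654-107296683, plus strand). Capitals mark the matches on either strand.
Bcl6: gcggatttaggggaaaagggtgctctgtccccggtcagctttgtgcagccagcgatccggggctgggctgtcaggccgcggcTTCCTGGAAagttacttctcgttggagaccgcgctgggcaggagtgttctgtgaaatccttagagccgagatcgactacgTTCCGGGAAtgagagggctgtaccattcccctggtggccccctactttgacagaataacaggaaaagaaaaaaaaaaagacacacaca
Nkg7: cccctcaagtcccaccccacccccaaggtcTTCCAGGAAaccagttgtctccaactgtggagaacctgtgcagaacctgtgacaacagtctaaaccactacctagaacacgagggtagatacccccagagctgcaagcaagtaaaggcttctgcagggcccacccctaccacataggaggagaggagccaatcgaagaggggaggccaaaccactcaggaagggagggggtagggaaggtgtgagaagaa
Cish: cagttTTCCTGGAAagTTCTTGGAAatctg
A match is a description of these letters, and whether Bcl6 or a STAT protein binds there was not measured.

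Interferon-induced genes fell together. All 26 of 26 measured type I interferon response genes fell with all arrays (median -0.92), and 25, 24, 23 and 23 fell when an array was left out. Ifit3 stood at 6.77 and 6.81 against 9.54 and 9.50 (6.65-fold, log2 change -2.73, SE 0.09, adjusted p = 3.7e-09), Ifit1 at 7.19 and 7.04 against 9.32 and 9.39 (4.72-fold) and Rtp4 at 6.92 and 7.18 against 10.06 and 9.79 (7.33-fold). These 3 were under the floor in reporter-positive cells. Usp18, a brake on the interferon receptor, stood at 7.57 and 7.56 against 10.12 and 10.07 (5.79-fold, log2 change -2.53, SE 0.09, adjusted p = 7e-09), Ifih1, a sensor of double-stranded RNA, at 9.55 and 9.83 against 11.66 and 11.57 and Zbp1, a nucleic acid sensor, at 9.72 and 9.73 against 11.63 and 11.52. Irf7 (-1.38), which amplifies the response, Stat2 (-0.73) and its partner Irf9 (-0.71) fell. The smallest falls were those of Oas2 (-0.31), Oasl1 (-0.33) and Oas1a (-0.38), whose calls were lost without at least 1 array. The receptor chains Ifnar1 (0.38) and Ifnar2 (0.40) rose with all arrays, calls that were lost without at least 1 array. Cxcr5-Bcl6- cells, at 9.83 and 9.73 for Ifit3 and 11.61 and 11.56 for Zbp1, stood close to Cxcr5+Bcl6- cells.

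GTPases that interferon gamma induces against intracellular microbes fell in 8 of 8 measured cases (median -2.02), also when each array was left out. Iigp1 stood at 6.64 and 6.64 against 10.50 and 10.42 and at 10.86 and 10.75 in Cxcr5-Bcl6- cells (14.1-fold, log2 change -3.81, SE 0.09, adjusted p = 5e-10). Irgm1 stood at 9.95 and 10.10 against 12.46 and 12.34 (5.19-fold, log2 change -2.37, SE 0.10, adjusted p = 4e-08) and Gbp5 at 9.27 and 9.48 against 11.43 and 11.47 (4.21-fold, log2 change -2.07, SE 0.10, adjusted p = 8.4e-08). Their groups were well apart. The Gbp and Irg families are tandem arrays of similar genes, and 8 more members of the list were not analysed here. In the immunoproteasome and MHC class I list 13 of 14 fell and 0 rose (median -0.55). Irf8 (8.91 and 8.85 against 10.95 and 10.99) and Irf1 (11.05 and 11.04 against 12.46 and 12.38), regulators of the response, fell most. The proteasome subunits Psmb9 (-0.76) and Psmb10 (-0.89), the activator subunit Psme2 (-0.69) and the peptide transporter Tap1 (-0.49) fell less. B2m, the light chain of MHC class I, did not pass (13.89 and 13.82 against 13.71 and 13.70). Nlrc5, which drives MHC class I genes, fell by 0.60, and 1 of its other probe sets did not pass.

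**Figure D5:**
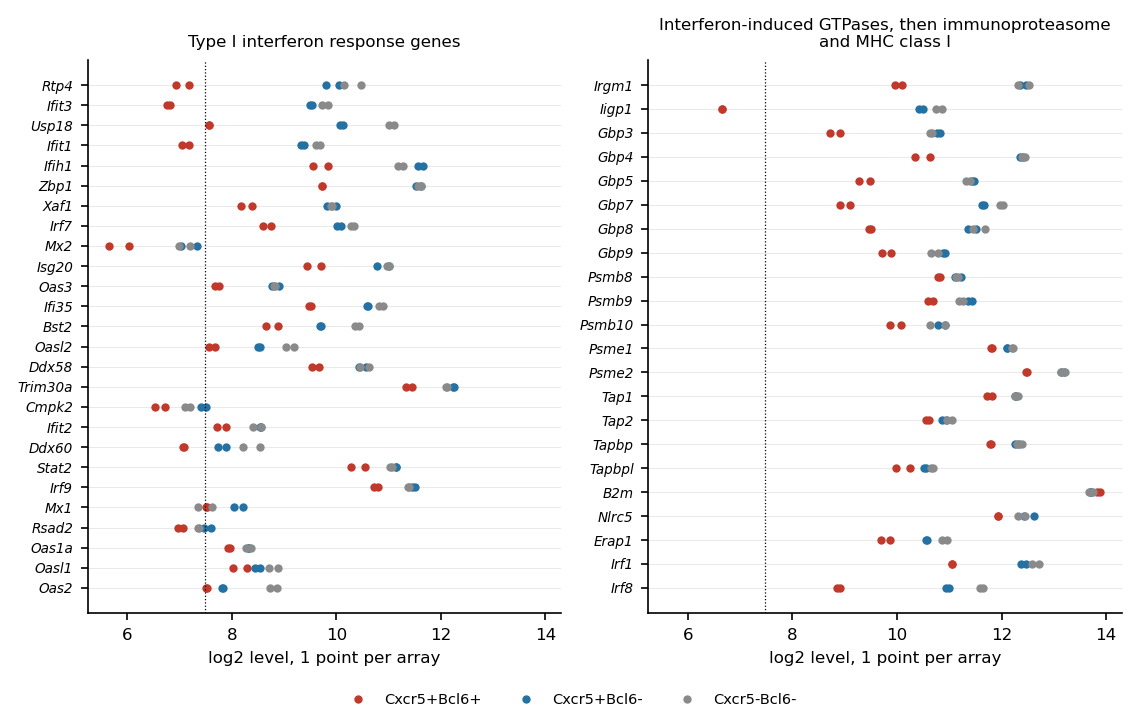
Log2 levels of 26 type I interferon response genes (left) and of 8 GTPases followed by 14 immunoproteasome and MHC class I genes (right), 1 point per array, red for Cxcr5+Bcl6+, blue for Cxcr5+Bcl6- and grey for Cxcr5-Bcl6-, with the floor of 7.48 dotted. Red points lie to the left in every row but that of B2m (13.89 and 13.82 against 13.71 and 13.70).

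Because these genes moved together, their promoters were searched for the interferon-stimulated type of motif AANNGAAAC, on both strands of the same 300 bases. That motif was chosen after the values were seen. It was in 5.77% of 32851 promoters and in 5.98% of the measured genes with a promoter. It was in 13 of the 20 type I interferon genes with a promoter (65%) and in 4 of 4 GTPase genes. Among all genes above the floor it was in 151 of 2034 falls (7.42%) and in 53 of 1144 rises (4.63%), and within these in 35 of 271 that fell by at least 2-fold (12.9%) and in 0 of 28 that rose by at least 2-fold. The 250 bases before the start are shown for Ifit3 (chr19:34583279-34583528, plus strand), Irgm1 (chr11:48871421-48871670, minus strand) and Gbp5 (chr3:142496684-142496933, plus strand), from RefSeq on GRCm38.p6. They were picked as strong falls of the 2 lists that hold the motif. Capitals mark matches to this motif on either strand, which overlap in Irgm1. Gbp5 also holds the TTCCNNGAA core, which is not capitalised here.
Ifit3: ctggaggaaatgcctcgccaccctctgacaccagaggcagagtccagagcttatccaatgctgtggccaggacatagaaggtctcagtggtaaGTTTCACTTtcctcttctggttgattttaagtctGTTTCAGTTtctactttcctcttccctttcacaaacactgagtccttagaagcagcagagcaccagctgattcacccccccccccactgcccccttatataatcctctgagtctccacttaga
Irgm1: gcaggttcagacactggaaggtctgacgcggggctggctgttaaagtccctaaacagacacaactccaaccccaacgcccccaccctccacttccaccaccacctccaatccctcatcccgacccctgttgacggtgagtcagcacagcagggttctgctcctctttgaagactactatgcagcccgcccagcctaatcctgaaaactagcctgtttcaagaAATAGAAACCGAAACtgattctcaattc
Gbp5: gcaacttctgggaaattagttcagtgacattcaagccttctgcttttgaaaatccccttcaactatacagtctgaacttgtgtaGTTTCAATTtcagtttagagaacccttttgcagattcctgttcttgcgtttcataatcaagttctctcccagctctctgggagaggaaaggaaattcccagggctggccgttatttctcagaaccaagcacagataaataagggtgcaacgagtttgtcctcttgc
No match says only that these letters are not in the window, and the lists were built from genes known to answer interferon.

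Genes that follow T cell receptor contact were lower. Of 20 early response genes 17 fell and 0 rose (median -0.87). Myc, a driver of growth, stood at 11.52 and 11.57, 13.07 and 13.10 and 13.53 and 13.50 in Cxcr5+Bcl6+, Cxcr5+Bcl6- and Cxcr5-Bcl6- cells (2.92-fold, log2 change -1.54, SE 0.09, adjusted p = 3.1e-07). Nr4a1 and Nr4a3, nuclear receptors induced by antigen, stood at 12.42 and 12.53 against 13.41 and 13.46 (log2 change -0.96, SE 0.09, adjusted p = 1.4e-05) and 11.53 and 11.72 against 12.81 and 12.81 (log2 change -1.19, SE 0.09, adjusted p = 3.8e-06). Each of these was still well above the floor in reporter-positive cells, and Cxcr5-Bcl6- cells were the highest. The phosphatases Dusp4 (-1.72), Dusp5 (-1.20) and Dusp6 (-1.04) and the factors Egr2 (-0.85) and Nfkbid (-0.94) fell. The activation marker Cd69 fell from 12.93 and 12.96 to 12.22 and 12.22 (log2 change -0.72, SE 0.09, adjusted p = 8.7e-05). Tnfaip3 (11.71 and 11.78 against 11.68 and 11.62) did not pass. By contrast the receptor complex and its proximal kinases were near equal: 4 of 21 rose and 1 fell (median 0.15), with 1, 3, 1 and 1 rises and 0, 0, 0 and 0 falls when arrays were left out, and more falls than rises after centring. The clear change was in Plcg1, a phospholipase of the cascade, from 11.19 and 11.14 to 11.65 and 11.75 (log2 change 0.54, SE 0.09, adjusted p = 0.00093).

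AP-1 and stress genes, which tissue handling can also induce, fell in 13 of 19 cases and rose in 2 (median -0.51), with 2, 1, 1 and 1 rises when arrays were left out. Atf3 stood at 8.39 and 8.60 against 10.72 and 10.50, with 11.93 and 11.79 in Cxcr5-Bcl6- cells (4.32-fold, log2 change -2.11, SE 0.11, adjusted p = 1.8e-07), Fosl1 at 8.38 and 8.18 against 9.90 and 9.78 and Fos at 8.62 and 8.70 against 9.64 and 9.45. The heat shock genes Hsph1 (-0.86) and Hsp90aa1 (-0.56) fell, and Hspa1a (8.23 and 8.40 against 8.14 and 8.16) did not pass. Ddit4, a stress-induced inhibitor of mTORC1, rose from 9.98 and 9.89 to 10.71 and 10.70 (log2 change 0.76, SE 0.09, adjusted p = 7.5e-05). The part of cell handling in these and the early response values was not tested.

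Receptors that place T cells in the tissue moved in both directions. For comparison, 11.8% of all genes rose and 13.2% fell, or 11.6% and 20.6% above the floor. Of 24 chemokine and positioning receptors 5 rose and 10 fell (median -0.16), with 3, 4, 4 and 4 rises when arrays were left out. Rises included Cxcr4, the sort gene Cxcr5 and S1pr1. Falls included Ccr8, Ccr4 (11.27 and 11.34 against 12.57 and 12.37, log2 change -1.16, SE 0.10, adjusted p = 5.3e-06), Ccr6, Gpr18 (9.77 and 9.79 against 11.69 and 11.66, 3.71-fold, log2 change -1.89, SE 0.09, adjusted p = 6.1e-08) and the prostaglandin receptor Ptger4 (-1.29). Ccr2 fell by 1.64 to a level under the floor. Gpr183, the oxysterol receptor that positions cells at the follicle edge, was at 12.03 and 12.13 against 12.34 and 12.25 and did not pass after adjustment (95% interval without adjustment -0.41 to -0.02). Of 23 integrin and adhesion genes 3 rose and 7 fell (median 0.01), with 2, 1, 1 and 2 rises when arrays were left out. That share of rises was near the share over all genes. Itgb8, an activator of latent TGF-beta, fell from 10.58 and 10.55 to 9.12 and 9.13 (log2 change -1.44, SE 0.09, adjusted p = 5.1e-07), and Itgav (-0.93) and Itgb3 (-0.90) fell as well. Cd9, a tetraspanin gene, rose from 10.23 and 10.24 to 11.15 and 11.13 (log2 change 0.90, SE 0.09, adjusted p = 2.9e-05). Cd44, on which the cells were sorted, was at 10.66 and 10.77 against 10.87 and 10.88 and did not pass.

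Regulators of G protein signalling, which shorten chemokine receptor signals, had 2 rises and 2 falls of 10 (median 0.09), with 2, 1, 1 and 1 rises and 2, 2, 1 and 1 falls when arrays were left out. Among all genes 11.8% rose and 13.2% fell, or 11.6% and 20.6% above the floor. So few calls were not read as a change of the family. Rgs1 fell from 11.47 and 11.50 to 9.55 and 9.70 (3.63-fold, log2 change -1.86, SE 0.09, adjusted p = 1.1e-07), and Rgs2 rose from 9.75 and 9.67 to 10.51 and 10.64 (log2 change 0.86, SE 0.09, adjusted p = 3.8e-05). Of 13 coinhibitory receptor genes 7 fell and 2 rose (median -0.50), with 1, 1, 1 and 1 rises when arrays were left out. The rise that was kept was that of Pdcd1. Cd274, which encodes the PD-1 ligand, fell from 12.29 and 12.19 to 10.64 and 10.79 (2.88-fold, log2 change -1.53, SE 0.09, adjusted p = 5.6e-07), and Pdcd1lg2 fell by 1.31. Lag3 (9.36 and 9.39 against 9.44 and 9.46) did not pass. In the TNF receptor and ligand families 12 of 20 fell and 1 rose (median -0.46). Fasl (-1.41), the death ligand, Tnfrsf1b (-0.90) and Tnfsf11 (-0.88) fell, while Tnfrsf26 rose by 0.60. Cd28 (12.89 and 12.99 against 12.70 and 12.70) and Cd27 (12.37 and 12.40 against 12.17 and 12.14) did not pass.

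Cell cycle genes were lower by modest amounts. Of 29 mitotic genes 22 fell and 1 rose (median -0.48), and of 29 replication genes 22 fell and 1 rose (median -0.50). Aurka, a mitotic kinase, stood at 9.20 and 9.21 against 9.81 and 9.77 (log2 change -0.59, SE 0.09, adjusted p = 0.0004), Hmmr at 8.21 and 8.20 against 9.01 and 8.84 and Tyms, which makes thymidylate, at 9.60 and 9.58 against 10.40 and 10.30 (log2 change -0.76, SE 0.09, adjusted p = 7.5e-05). For Aurka and Hmmr, reporter-positive cells still lay above Cxcr5-Bcl6- cells (8.79 and 8.77 and 7.26 and 7.22). Mki67, the proliferation marker, was at 11.46 and 11.59, 11.77 and 11.77 and 10.42 and 10.38 in Cxcr5+Bcl6+, Cxcr5+Bcl6- and Cxcr5-Bcl6- cells and did not pass after adjustment (95% interval without adjustment -0.45 to -0.06). The mitotic rise was that of the phosphatase Cdc25b, from 10.99 and 11.11 to 11.82 and 11.92 (log2 change 0.82, SE 0.09, adjusted p = 6.6e-05), and the replication rise that of Mcm6, from 10.93 and 10.86 to 11.37 and 11.41 (log2 change 0.50, SE 0.10, adjusted p = 0.0034). The helicase partners of Mcm6 moved the other way, with Mcm3 at -0.76, Mcm5 at -0.66 and Mcm2 at -0.62. Of 18 G1 cyclins and CDK inhibitors 4 rose and 5 fell (median -0.07), with 2, 2, 3 and 2 rises and 4, 5, 3 and 4 falls when arrays were left out, and more rises than falls after cyclic loess normalisation. Ccnd2, a cyclin of G1, fell from 13.43 and 13.36 to 11.54 and 11.52 (3.65-fold, log2 change -1.87, SE 0.09, adjusted p = 7.5e-08), while Cdkn1b (0.54), the p27 inhibitor, and Rb1 (0.56) rose. Of 18 histone genes 5 fell and 0 rose (median -0.12), with 4, 3, 3 and 2 falls when arrays were left out. The G1 and histone counts stand beside 11.8% rises and 13.2% falls over all genes, or 11.6% and 20.6% above the floor. Histone genes are near-identical copies.

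Genes for growth and protein output were lower as well, apart from those of ribosomal proteins. Of 22 ribosome biogenesis genes 20 fell and 0 rose (median -1.0). Rrp1b stood at 9.15 and 9.40 against 10.91 and 10.82 (3.02-fold, log2 change -1.60, SE 0.10, adjusted p = 6.9e-07), Polr1b, a subunit of RNA polymerase I, at 10.13 and 10.21 against 11.62 and 11.50 (2.62-fold, log2 change -1.39, SE 0.09, adjusted p = 9.5e-07) and Dkc1, a pseudouridine synthase, at 9.42 and 9.55 against 10.93 and 10.86. Cxcr5-Bcl6- cells were higher than both Cxcr5+ groups, at 12.18 and 12.10 for Polr1b. The ribosomal proteins themselves had 2 falls and 0 rises of 19 (median -0.08), with 1, 1, 1 and 1 falls when arrays were left out, Rpl12 (-0.99) among them. They did not fall more often than genes at large, of which 13.2% fell, or 20.6% above the floor. In glycolysis and nutrient uptake 11 of 19 fell and 1 rose (median -0.31), with 0, 1, 0 and 0 rises when arrays were left out. Hk2, a hexokinase, stood at 7.96 and 8.06 against 9.30 and 9.37 (2.51-fold, log2 change -1.33, SE 0.09, adjusted p = 9.8e-07), Slc7a5, an amino acid transporter, at 11.15 and 11.45 against 12.29 and 12.36 and Slc2a1, the glucose transporter, at 10.43 and 10.80 against 11.44 and 11.39. Of 22 unfolded protein response and secretory genes 12 fell and 0 rose (median -0.31), among them Xbp1 (-0.81), Hspa5 (-0.68) and Hsp90b1 (-0.93).

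Fewer lists leaned upward. Among all genes 11.8% rose and 13.2% fell, or 11.6% and 20.6% above the floor. Counts near these shares are not results about a list. Of 15 Foxo factors and genes that restrain PI3K 7 rose and 1 fell (median 0.25), with 5, 3, 5 and 2 rises when arrays were left out. Tsc22d3 rose from 8.40 and 8.32 to 9.01 and 9.02 (log2 change 0.65, SE 0.09, adjusted p = 0.00031) and Pdcd4 from 12.22 and 12.22 to 12.89 and 12.69 (log2 change 0.57, SE 0.10, adjusted p = 0.0011), while the phosphatase Phlpp1 fell by 0.82. Of 23 sterol and fatty acid genes 5 rose and 0 fell (median 0.12), with 4, 3, 2 and 3 rises when arrays were left out. With an array left out, the list's share of rises lay around that of all genes. The desaturases Scd2 (12.72 and 12.69 against 11.88 and 11.87, log2 change 0.83, SE 0.08, adjusted p = 3e-05) and Scd1 (0.74) led it, and Hmgcs1 (11.48 and 11.59 against 11.44 and 11.38) and Sqle (10.66 and 10.86 against 10.87 and 10.64), enzymes of sterol synthesis, did not pass. Other pathway lists were mixed. In the TGF-beta pathway 3 of 20 rose and 6 fell (median -0.10), with 3, 1, 1 and 1 rises when arrays were left out. Smad7, an inhibitor of the pathway, fell from 9.47 and 9.54 to 8.55 and 8.60 (log2 change -0.93, SE 0.09, adjusted p = 1.4e-05), and Smad3 (10.37 and 10.69 against 10.60 and 10.60) did not pass. In the Bcl2 family 3 of 14 rose and 5 fell (median -0.00), with 1, 2, 0 and 1 rises and 3, 4, 2 and 3 falls when arrays were left out. Bcl2l1, which encodes the survival protein Bcl-xL, fell from 10.26 and 10.32 to 8.94 and 9.11 (2.41-fold, log2 change -1.27, SE 0.09, adjusted p = 2e-06), and Bcl2l11, the gene of the death protein Bim, did not pass (10.75 and 10.97 against 10.82 and 10.96).

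Marker genes of other lymph node cells were read beside these values, since a sort can let some through. Over all genes 11.8% rose and 13.2% fell, and above the floor 11.6% rose and 20.6% fell. List counts near these shares are not results about a cell type. Of 20 B cell genes 8 rose and 1 fell (median 0.24, against 0.06 over all genes and 0.30 over the receptor genes), with 7, 5, 5 and 5 rises when arrays were left out. Their mean log2 level was 8.23 and 8.28 in Cxcr5+Bcl6+ and 7.99 and 7.96 in Cxcr5+Bcl6- arrays, and 15, 14, 11 and 11 of 20 stood above the floor on these arrays. Cd79b was high, and Ms4a1, which encodes CD20, stood at 8.34 and 8.71 against 7.95 and 7.68, Cd22 at 8.29 and 8.57 against 7.70 and 7.69 and Pax5 at 8.33 and 8.48 against 8.00 and 8.07. Cd79a, the partner of Cd79b, was under the floor on all of these arrays (7.41 and 7.45 against 6.89 and 6.82), and Ighm, the antibody mu chain, was at 8.89 and 8.84 against 9.01 and 9.04 and did not pass. MHC class II genes had 6 rises and 2 falls of 11 (median 0.31), with 5, 4, 3 and 3 rises and 0, 1, 0 and 1 falls when arrays were left out. Their mean level was 9.13 and 9.20 against 9.04 and 8.99, H2-Ab1 stood at 10.71 and 10.58 against 10.12 and 10.13, and Cd74 (11.21 and 11.26 against 11.11 and 11.03) did not pass. The part of B cells in the rises was not tested.

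Germinal centre B and plasma cell genes had 2 rises and 5 falls of 15 (median -0.01), with 0, 1, 1 and 1 rises when arrays were left out, at mean levels of 8.15 and 8.09 against 8.38 and 8.37. The leading falls, Prdm1, Irf4 and Xbp1, are also genes of activated T cells, and Jchain, the antibody joining chain, was at 6.78 and 7.11 against 7.69 and 7.48. Plasmacytoid dendritic cell genes, which answer interferon in part, had 11 falls and 1 rise of 14 (median -0.72), with 1, 0, 0 and 0 rises when arrays were left out. Their mean level was 7.86 and 7.75 against 8.51 and 8.47, and 10.05 and 9.99 in Cxcr5-Bcl6- cells. The defining gene Siglech stood at 7.67 and 7.34, 8.11 and 8.11 and 10.38 and 10.39 in the same order (log2 change -0.61, SE 0.11, adjusted p = 0.0018). Myeloid and conventional dendritic cell genes had 6 falls and 2 rises of 28 (median 0.02), with 0, 1, 0 and 0 rises when arrays were left out, at 7.39 and 7.39 against 7.56 and 7.52. Of all genes 13.2% fell. Of the list's 14 members above the floor 5 fell, where 20.6% of genes did. With so few genes these counts were not read as a change of the list. Mpeg1, the macrophage perforin, stood at 6.29 and 6.49 against 7.91 and 7.95 (log2 change -1.54, SE 0.10, adjusted p = 5.9e-07), and Csf1r and Adgre1 were under the floor in both groups (6.94 and 6.60 against 6.64 and 6.59 and 5.90 and 5.89 against 5.73 and 5.71). The plasmacytoid list was lower with the reporter, beside the falls of the interferon genes, and its part in those falls was not tested.

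CD8 T cell genes had 5 falls and 0 rises of 9 (median -0.48), at mean levels of 7.55 and 7.55 against 8.53 and 8.50. Cd8a stood near the floor in both groups (7.44 and 7.24 against 7.49 and 7.45) and Cd8b1 at 8.72 and 8.64 against 8.88 and 8.78, and neither passed. The falls, Itgae, Crtam, Xcl1, Gzma and Eomes, are also genes of effector or regulatory CD4 cells. NK and innate-like T cell genes had 5 falls and 1 rise of 12 (median -0.21), with 0, 1, 0 and 1 rises when arrays were left out, at 7.33 and 7.43 against 7.75 and 7.70, and the defining gene Ncr1 was under the floor (6.10 and 6.20 against 6.40 and 6.20). Stromal and endothelial genes had 2 rises and 0 falls of 14 (median 0.18), with 0, 1, 1 and 0 rises when arrays were left out, at 7.9 and 7.82 against 7.69 and 7.69. Their share of rises was near the 11.8% of all genes. Of the 9 members above the floor 2 rose, where 11.6% of genes did. Erythroid and platelet genes had 0 rises and 0 falls of 6 by limma (median 0.11), at 7.0 and 6.88 against 6.85 and 6.85. The part of CD8 and NK cells in the falls of cytotoxic genes was not tested.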

How the data were processed

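Total RNA of 6 sorted samples was hybridised to whole-transcript arrays. The authors deposited probe-set values on a log2 scale, and the submitters' processing notes name GCOS 1.1, RMA and Affymetrix Expression Console. Settings and detection calls are not stated there, and the number of arrays limits the precision. Symbols came from the platform's annotation, updated through Entrez identifiers for 21698 probe sets and kept for 91. Of 35556 rows 23410 were named and tested, and 1 probe set per gene, that with the highest mean, was described. limma 3.58.1 in R 4.3.3 fitted group means to all 6 arrays (3 residual degrees of freedom), with eBayes, a two-sided test and Benjamini-Hochberg adjustment over all named probe sets. Named genes were the sort genes, the markers given with the comparison, the 15 largest rises and falls without overlap and above the floor, in each list the 6 members with the smallest p, and further members beside their list. The members and the 46 lists (687 measured genes) were chosen with earlier results of these data known, so lists are described by counts, with no test. Alternatives were other normalisations, filters, eBayes options, fewer arrays, the replicate number as a term and other thresholds.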

Additional observations from a re-analysis of the deposited data

How the results depend on the processing

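Of 700 genes followed through 17 refits 0 reversed among those called. The 30 largest changes, picked by size and call on the same arrays, passed in each refit that tested them. The filter at the median level left out Padi4, Srsy, Hpgds, Ascl2 and Sccpdh. Of 424 called genes 112 lost the call without at least 1 of the 4 compared arrays, all with log2 changes of 0.57 or less in size, and 312 kept it. Rises numbered 2074 (35% of calls, with 3859 falls) after centring each array on its median, which moves all genes of an array alike, 1613 (34.2%) among probe sets above the median level, and 726 of 1952 calls (37.2%, with 1226 falls) with a change of at least 1.5-fold required as well. Leaving out single arrays gave 3617 to 6987 calls, with 1679 to 3676 rises, 1917 to 3311 falls and 43.2% to 54.2% rises. The high end is the fit without 1 Cxcr5-Bcl6- array, which equals the fit to the 4 compared arrays. With the replicate number as a term (replicate block) 5862 probe sets passed, and 14 calls were lost and 2 gained among the followed genes. When all rows of the table were tested, with or without a gene name, 5565 passed (2797 rises and 2768 falls). In that refit 67 calls were lost and 0 gained among the followed genes. The labels do not say that replicate numbers mark a shared mouse, litter or day, so the numbers were not treated as pairs. Deviations of same-numbered arrays correlated at -0.05 between the compared groups. Against Cxcr5-Bcl6- arrays they correlated at -0.23 for Cxcr5+Bcl6+ and at 0.26 for Cxcr5+Bcl6- arrays. With 2 arrays a group these values cannot show whether the numbers mark pairs. Probe sets of the same gene were compared only among the 700 followed genes. Their calls disagreed for Acaca, Fdft1, Nlrc5, Pdia4, Pkm, Socs3, Socs6 and Top2a. The size of a fold is uncertain where 1 group lies under the floor.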

Other observations

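Of the 12146 rows with no gene name in the annotation used here, 940 rose and 581 fell by limma when all rows were tested together, 12.5% of them, which is a smaller share than among named probe sets.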
